A study of Mus musculus with 6 samples.

Results

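The scavenger receptors described here are 9 genes, *Msr1*, *Marco*, *Colec12*, *Scarb1*, *Scarb2*, *Cd68*, *Olr1*, *Stab1* and *Stab2*, picked by symbol from the 25701 genes of a bulk RNA-seq count table. They belong to 5 structural classes of the family, A, B, D, E and H. All 9 were found in the table, and 8 of them passed the filter on low counts. *Marco* was too low to be tested. The libraries came from CD11b+ cells that were purified with magnetic beads from the flank tumors of 3 mice per group, MCT2 CO and MCT2 KO, and the comparison asks how gene expression in these cells differs after the induced deletion of the pyruvate and lactate transporter MCT2 in the host.

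Mice of both groups carried the MCT2loxP/loxP; Cre+ genotype on a C57BL/6 background, in which Cre from the mCre-Tg transgene is activated by tamoxifen. MCT2 KO mice received tamoxifen at 8 weeks of age and MCT2 CO mice of the same genotype received vehicle, so that the deletion and the exposure to tamoxifen cannot be told apart in this comparison. TC1 cells, a mouse lung epithelial tumor line, were injected under the skin 2 days after treatment, and the tumors were taken on day 24. The deletion is systemic, and it is not limited to macrophages. In the sample records the tissue is lung and the cell type purified macrophages, whereas the study's methods describe flank tumors and CD11b selection. CD11b is an integrin that monocytes, macrophages and neutrophils display.

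Scavenger receptors are cell surface and endosomal proteins that bind polyanionic ligands such as modified low-density lipoprotein, bacterial surface molecules, apoptotic cells and worn extracellular proteins, and they hand these to endosomes and lysosomes. Class A receptors carry a collagen-like stalk, class B receptors cross the membrane at both ends of a large loop, *Cd68* is a heavily glycosylated protein of late endosomes, class E is a C-type lectin, and class H proteins are large receptors with fasciclin domains. In tumors, *Msr1*, *Marco*, *Stab1* and *Cd68* are commonly used to describe macrophages, while *Stab2* is best known from sinusoidal endothelium.

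Promoter sequences are shown for 5 members because the values of *Cd68*, *Scarb2* and *Olr1* moved alike over the libraries, whereas those of the pair *Stab1* and *Stab2* did not. Each sequence holds the 250 bases before the RefSeq start on GRCm38.p6, all on the minus strand and written 5′ to 3′. RefSeq promoter entries were matched for 6 of the 9 members. Capitals mark matches, on either strand, to GAGGAA (a core of the PU.1 motif), CACGTG (an E-box bound by the TFEB family) or TGANTCA (an AP-1 motif). The *Cd68* promoter lies at chr11:69666171-69666420, that of *Scarb2* at chr5:92505658-92505907, that of *Olr1* at chr6:129507166-129507415, that of *Stab1* at chr14:31168642-31168891 and that of *Stab2* at chr10:87007943-87008192.
Cd68: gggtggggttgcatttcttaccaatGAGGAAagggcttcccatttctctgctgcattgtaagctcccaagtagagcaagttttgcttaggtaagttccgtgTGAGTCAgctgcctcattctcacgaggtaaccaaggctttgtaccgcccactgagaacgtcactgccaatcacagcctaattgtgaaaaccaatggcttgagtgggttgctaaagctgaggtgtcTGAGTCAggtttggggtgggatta
Scarb2: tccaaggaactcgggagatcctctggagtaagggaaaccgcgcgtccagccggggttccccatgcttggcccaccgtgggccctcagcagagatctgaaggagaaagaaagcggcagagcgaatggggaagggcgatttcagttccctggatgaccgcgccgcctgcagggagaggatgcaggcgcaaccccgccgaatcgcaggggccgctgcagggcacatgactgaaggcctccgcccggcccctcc
Olr1: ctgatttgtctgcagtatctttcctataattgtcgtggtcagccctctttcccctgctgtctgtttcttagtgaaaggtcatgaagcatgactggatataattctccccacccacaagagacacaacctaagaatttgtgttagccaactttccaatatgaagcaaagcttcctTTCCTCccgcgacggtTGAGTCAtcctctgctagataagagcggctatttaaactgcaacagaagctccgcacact
Stab1: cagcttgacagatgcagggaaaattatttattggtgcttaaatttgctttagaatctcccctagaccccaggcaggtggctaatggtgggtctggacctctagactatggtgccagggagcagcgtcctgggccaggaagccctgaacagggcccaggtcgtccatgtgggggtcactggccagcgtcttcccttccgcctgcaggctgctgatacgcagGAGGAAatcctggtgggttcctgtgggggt
Stab2: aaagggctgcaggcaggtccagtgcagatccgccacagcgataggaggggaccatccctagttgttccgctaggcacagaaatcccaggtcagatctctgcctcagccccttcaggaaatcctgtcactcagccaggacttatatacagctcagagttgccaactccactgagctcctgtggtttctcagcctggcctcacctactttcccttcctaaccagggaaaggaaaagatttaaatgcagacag

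GAGGAA or its reverse complement was found in the windows of *Cd68*, *Olr1* and *Stab1*, starting 225, 76 and 30 bases before the RefSeq start. Over 27025 RefSeq promoters it occurs in 23.1%. TGANTCA was found 2 times in *Cd68*, at 149 and 24 bases before the start, and at 60 bases before it in *Olr1*, and 6.87% of all promoters hold it. CACGTG, which 6.05% of all promoters hold, was in none of the 5 windows. The windows of *Scarb2* and *Stab2* held none of these letters. Such matches describe the letters of the window and were not measured as binding.

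Total counts lay between 24863611 and 31713704 per library, and no pair of replicates was close enough to be a library deposited again. MCT2 CO replicate 3 and MCT2 KO replicate 2 stood apart from the rest in the principal components. The targeted gene *Slc16a7* averaged 12.8 ± 2.84 CPM in MCT2 CO (SD, n = 3, with CPM as counts scaled by total count and TMM factor) against 6.18 ± 1.78 CPM in MCT2 KO, and the groups did not overlap. Its log2 fold change was -1.05 (SE 0.24), and edgeR's quasi-likelihood test gave an adjusted p of 0.370 after Benjamini–Hochberg correction. Macrophage markers were abundant in every library, led by *Lyz2*, *C1qa* and *C1qb*, with summed levels from 5618 to 7516 CPM in MCT2 CO and from 6622 to 10621 in MCT2 KO. All 11 macrophage markers tested had a positive log2 fold change, 1 of them with an unadjusted p under 0.05. *Itgam*, which encodes CD11b, had 1 count over the 6 libraries, and 99.1% of its exon bases lie within the span of the gene *Gm49368*. Fibroblast markers, led by *Col3a1*, *Col5a1* and *Col1a2*, summed to between 2541 and 4145 CPM in MCT2 CO and to between 2134 and 2296 in MCT2 KO without overlap (two-sided exact permutation test, p = 0.1, which is the lowest value that 3 against 3 mice can give). Summed levels of the other marker lists were far lower. They ran from 123 to 136 CPM in MCT2 CO and from 111 to 177 in MCT2 KO for endothelial markers, and from 83.3 to 103 and from 69.6 to 186 for neutrophil markers. Most of the neutrophil sum was *Csf3r*, at 86.1 ± 13.1 CPM in MCT2 CO and 92.9 ± 44.9 CPM in MCT2 KO, with overlapping groups. Of the 8 neutrophil markers tested, 6 were higher in MCT2 KO at an unadjusted p under 0.05. These were *S100a8*, *S100a9*, *Retnlg*, *Ngp*, *Ltf* and *Mmp8*, all without overlap. The most abundant, *S100a9*, averaged 3.42 ± 0.803 CPM in MCT2 CO and 12.6 ± 7.28 CPM in MCT2 KO. At such a p, 5 of 10 fibroblast markers, 3 of 7 B-cell markers, 1 of 12 endothelial markers and 1 of 8 dendritic cell markers were lower in MCT2 KO. None of the T and NK cell markers or the epithelial tumor cell markers passed. Over all 13485 genes tested, 509 were higher and 755 lower at such a p. None of the marker genes was at 0 in all libraries. The sum of epithelial tumor cell markers was mostly *Cdh1*, at 15.9 ± 3.64 CPM in MCT2 CO and 23.2 ± 7.73 CPM in MCT2 KO. *Krt8*, *Krt18* and *Krt19* had at most 4 counts in any library. The share of TC1 RNA in the libraries was not tested. The study states that telling TC1 cells from host mesenchymal cells would need further analyses.

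None of the 8 scavenger receptors tested was called by edgeR's quasi-likelihood test, which takes both an adjusted p no higher than 0.05 and a log2 fold change of 0.58 or more in either direction, and over all 13485 genes tested 0 genes (0%) did. At an unadjusted p under 0.05, 1 of the 8 members, *Msr1*, was higher in MCT2 KO and 0 were lower, where 1264 of all genes (9.37%) had such a p and 509 (3.77%) were higher. The log2 fold change was positive in 6 members and negative in 2. Its median over the members was 0.11, against 0.00037 over all genes tested, and the median absolute log2 fold change was 0.24, against 0.12. DESeq2, run on every gene with a count, also called 0 members, while it called 83 of the 14202 genes with an adjusted p (0.584%). By this tool *Msr1* and *Stab1* had an unadjusted p under 0.05. The 3 MCT2 KO values lay wholly apart from the 3 MCT2 CO values in 1 of the 8 members, *Scarb1*, where they were higher. Over all genes tested the groups did not overlap in 15.8%, and in 7.07% all MCT2 KO values were the higher ones. CD11b+ cells of different kinds were pooled in each library, so that a difference in the number of cells expressing a gene and a difference in RNA per cell cannot be told apart. The edgeR p values set the group difference against variation between mice within the groups, estimated with information from all genes tested. They rest on 3 mice per group. Values given below as mean ± SD are CPM over the 3 mice of a group, and single values are given in the order of replicates 1, 2 and 3.

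**Figure D1:**
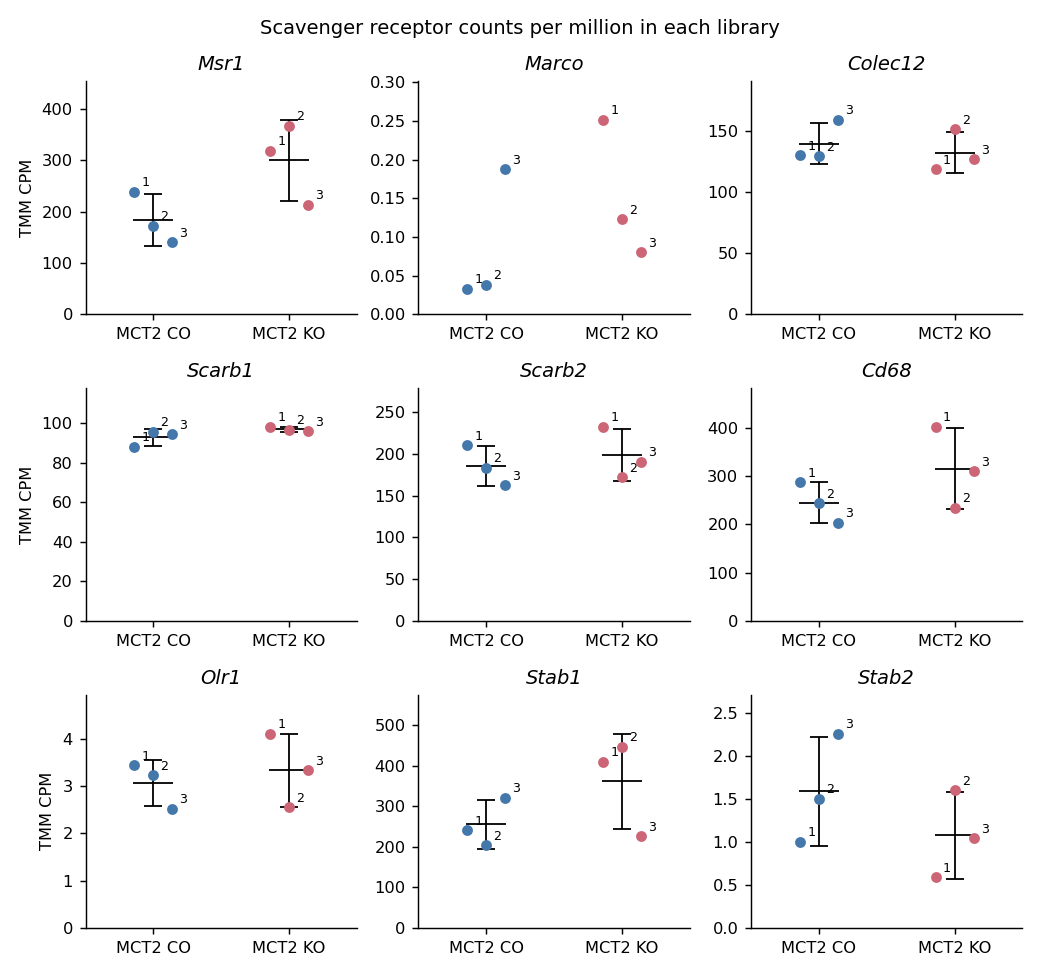
TMM-scaled CPM (linear axis from 0) of each scavenger receptor in each library, with the replicate number beside each point. Horizontal bars and whiskers give the mean and SD of the 3 mice of a group, and are left out for *Marco*, whose points stand for 1 to 6 reads. The MCT2 CO and MCT2 KO points overlap in every panel but that of *Scarb1*, where they lie between 88.1 and 95.6 CPM and between 95.9 and 98.2 CPM.

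Among the class A receptors, *Msr1*, the macrophage receptor for acetylated low-density lipoprotein also called SR-A1, had the highest log2 fold change of the 8 members. The gene (ENSMUSG00000025044) sits on chromosome 8, minus strand, from 39581685 to 39642673 (GRCm38, as for all genes here). It was measured at 239, 173 and 141 CPM in the MCT2 CO mice and at 319, 368 and 214 CPM in the MCT2 KO mice. The lowest MCT2 KO value, that of replicate 3, was below the highest MCT2 CO value, that of replicate 1, and the other MCT2 KO values were above all MCT2 CO values. Means were 184 ± 50.2 CPM in MCT2 CO and 300.4 ± 78.8 CPM in MCT2 KO, and the log2 fold change was 0.70 (SE 0.24, 95% interval from 0.15 to 1.26). It ranked 171 from the top of 13485 genes by fold change. In edgeR's quasi-likelihood test the unadjusted p was 0.0187 and the adjusted p 0.453. DESeq2, run on every gene with a count, gave an adjusted p of 0.125. With MCT2 CO replicate 3 and MCT2 KO replicate 2 both left out, an alternative chosen after seeing the data, the log2 fold change was 0.37 (unadjusted p = 0.105 in edgeR's quasi-likelihood test). The unadjusted p was also above 0.05 when MCT2 CO replicate 2, MCT2 CO replicate 3 or MCT2 KO replicate 2 was left out alone (0.0585, 0.0611 and 0.0549), and the log2 fold change was under 0.58 without MCT2 CO replicate 3 (0.54) and without MCT2 KO replicate 2 (0.53).

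*Marco*, the class A receptor of alveolar and marginal zone macrophages that binds bacteria and particles, was near the limit of detection. The gene (ENSMUSG00000026390) lies on the minus strand of chromosome 1 from 120474538 to 120505024. It had 1, 1 and 5 counts in the MCT2 CO mice and 6, 4 and 2 counts in the MCT2 KO mice, or 7 against 12 in all. At this depth no difference was detectable (exact permutation test of the CPM, two-sided, p = 0.5).

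*Colec12*, a class A receptor with a C-type lectin domain that is also known as SR-A4, was nearly level between the groups. It lies on the plus strand of chromosome 18 from 9707595 to 9882644 (ENSMUSG00000036103), and 3 other listed genes within its span, all of unknown coding status and all at 0 counts, cover none of its exon bases. Its values were 130, 129 and 159 CPM in the MCT2 CO mice and 119, 151 and 127 CPM in the MCT2 KO mice. MCT2 CO replicate 3 and MCT2 KO replicate 2 were the high libraries of their groups, and the groups overlapped. The summed fibroblast markers were 2541, 2825 and 4145 CPM in the MCT2 CO mice and 2253, 2296 and 2134 CPM in the MCT2 KO mice. Their 3 most abundant genes differed within MCT2 KO. *Col3a1* was lowest in replicate 2 (1017, 805 and 821 CPM). *Col5a1* (411, 449 and 401 CPM) and *Col1a2* (338, 438 and 393 CPM) were highest there, like *Colec12*. In MCT2 CO all 3 were highest in replicate 3. The part of fibroblast content in the *Colec12* values was not tested. The log2 fold change was -0.08 (SE 0.12, 95% interval from -0.36 to 0.21, adjusted p = 0.871 in edgeR's quasi-likelihood test). Its sign turned when MCT2 CO replicate 3 or MCT2 KO replicate 1 was left out.

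The class B receptors had small fold changes. *Scarb1*, the high-density lipoprotein receptor SR-B1 that takes up cholesteryl esters, was the most even of the members over the 6 mice. The gene (ENSMUSG00000037936) lies on the minus strand of chromosome 5 from 125277087 to 125341094, with the listed gene *Gm42633* (0 counts) in an intron. It was measured at 88.1, 95.6 and 94.4 CPM in the MCT2 CO mice and at 98.2, 96.5 and 95.9 CPM in the MCT2 KO mice. Every MCT2 KO value was above every MCT2 CO value, by as little as the distance from 95.6 to 95.9 CPM (exact permutation test, two-sided, p = 0.1). With total counts in place of TMM scaling the groups overlapped. Means were 92.7 ± 4.06 and 96.9 ± 1.15 CPM, and the log2 fold change of 0.06 (SE 0.07, 95% interval from -0.10 to 0.23) did not pass (adjusted p = 0.812, edgeR's quasi-likelihood test). For the other members the exact permutation test gave p = 0.2 for *Msr1*, 0.3 for *Cd68* and *Stab1*, and 0.5 or more for the rest.

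*Scarb2*, which encodes LIMP-2, an abundant protein of the lysosomal membrane, lies on the same chromosome from 92441314 to 92506833 on the minus strand (ENSMUSG00000029426). It had 210, 184 and 162 CPM in the MCT2 CO mice and 232, 172 and 191 CPM in the MCT2 KO mice. The groups overlapped, with MCT2 KO replicate 1 highest and MCT2 CO replicate 3 lowest. The log2 fold change was 0.10 (SE 0.14, 95% interval from -0.22 to 0.42, adjusted p = 0.854 in edgeR's quasi-likelihood test), and it was below 0 without MCT2 KO replicate 1.

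*Cd68*, the class D member that is widely used to stain macrophages, lies on the minus strand of chromosome 11 from 69664213 to 69666153 (ENSMUSG00000018774). It was measured at 287, 243 and 203 CPM in the MCT2 CO mice and at 402, 234 and 310 CPM in the MCT2 KO mice. MCT2 KO replicates 1 and 3 were above all MCT2 CO values, and MCT2 KO replicate 2 was among them. Means were 245 ± 42.1 and 315 ± 83.9 CPM, and the log2 fold change was 0.37 (SE 0.20, 95% interval from -0.10 to 0.83). The adjusted p was 0.605 in edgeR's quasi-likelihood test. Without MCT2 KO replicate 1 the log2 fold change was 0.16, and without MCT2 KO replicate 2 it was 0.54 (unadjusted p = 0.0119, edgeR's quasi-likelihood test). *Olr1*, the class E lectin-like receptor for oxidized low-density lipoprotein (LOX-1), lies on the minus strand of chromosome 6 from 129485244 to 129507165 (ENSMUSG00000030162) and was low. It had 3.44, 3.23 and 2.52 CPM in the MCT2 CO mice and 4.11, 2.55 and 3.33 CPM in the MCT2 KO mice, with overlapping groups. Its log2 fold change of 0.11 (SE 0.23, 95% interval from -0.43 to 0.66, adjusted p = 0.904 in edgeR's quasi-likelihood test) turned below 0 without MCT2 CO replicate 3 or without MCT2 KO replicate 1.

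The class H receptors differed from each other in level and had fold changes of opposite sign. *Stab1*, which encodes stabilin-1, a receptor of macrophages and endothelium that clears the matrix protein SPARC, lies on the minus strand of chromosome 14 from 31139013 to 31168641 (ENSMUSG00000042286). The span of *Nt5dc2* on the opposite strand covers 1.40% of its exon bases. *Stab1* was measured at 242, 204 and 322 CPM in the MCT2 CO mice and at 411, 448 and 227 CPM in the MCT2 KO mice. MCT2 KO replicates 1 and 2 were above all MCT2 CO values, whereas MCT2 KO replicate 3 was below those of MCT2 CO replicates 1 and 3. Means were 256 ± 60.1 and 362 ± 118 CPM, and the log2 fold change was 0.50 (SE 0.26, 95% interval from -0.10 to 1.10, adjusted p = 0.588 in edgeR's quasi-likelihood test). Leaving out 1 mouse at a time moved it between 0.32 (without MCT2 KO replicate 2) and 0.75 (without MCT2 KO replicate 3).

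*Stab2*, which encodes stabilin-2, the hyaluronan receptor of sinusoidal endothelium, lies on the minus strand of chromosome 10 from 86841198 to 87008025 (ENSMUSG00000035459). It had 30, 39 and 60 counts in the MCT2 CO mice and 14, 52 and 26 counts in the MCT2 KO mice. Scaled, these were 1.00, 1.5 and 2.26 CPM in MCT2 CO and 0.587, 1.60 and 1.04 CPM in MCT2 KO, with MCT2 CO replicate 3 highest and MCT2 KO replicate 1 lowest. The log2 fold change was -0.53 (SE 0.42, 95% interval from -1.5 to 0.45, adjusted p = 0.724 in edgeR's quasi-likelihood test). It was -0.18 without MCT2 CO replicate 3, -0.24 without MCT2 KO replicate 1, -0.57 without MCT2 CO replicate 2, -0.49 without MCT2 KO replicate 3, -0.78 without MCT2 CO replicate 1 and -0.94 without MCT2 KO replicate 2. The summed endothelial markers were 123, 136 and 135 CPM in the MCT2 CO mice and 153, 111 and 177 CPM in the MCT2 KO mice, an order unlike that of *Stab2*. Of the 12 endothelial markers, 7 had a positive log2 fold change (median 0.27), and their part in the *Stab2* values was not tested.

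**Figure D2:**
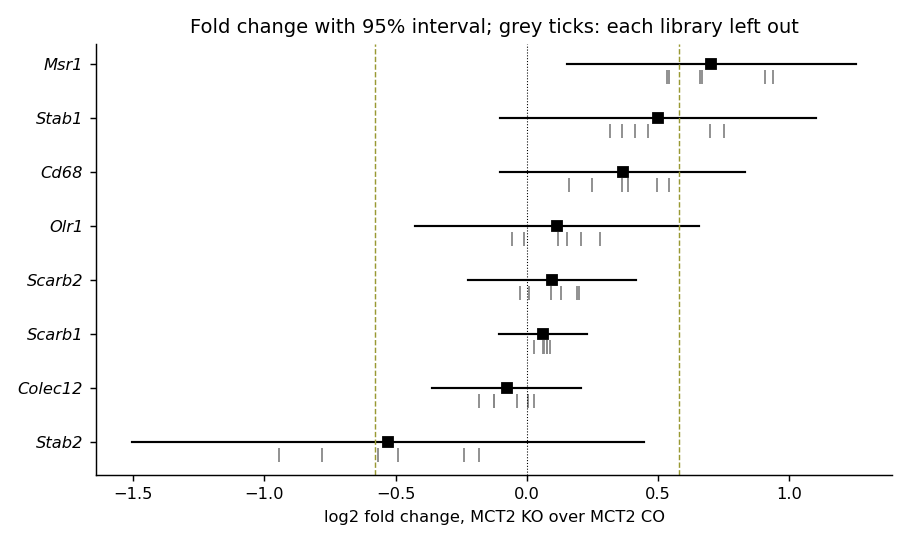
Log2 fold change of MCT2 KO over MCT2 CO for the 8 scavenger receptors tested by edgeR's quasi-likelihood test (squares) with 95% intervals (lines). Grey ticks show the value with each library left out in turn, and dashed lines the fold threshold of 0.58 on the log2 scale. The interval of *Msr1* lies above 0, and those of the other 7 include it.

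Levels of different genes were compared per kilobase of exon, with exon lengths of the GENCODE M21 basic set. *Cd68* was the most abundant member, at 223 ± 56.4 CPM per kb (SD, n = 6). *Msr1* followed at 60.5 ± 21.7, *Scarb2* at 40.8 ± 5.50, *Stab1* at 38.6 ± 12.8 and *Scarb1* at 37.6 ± 1.39 CPM per kb. Within the groups *Stab1* took another place, below *Scarb2* and *Scarb1* in MCT2 CO (32.0 against 39.5 and 36.8 CPM per kb) and above both in MCT2 KO (45.2 against 42.2 and 38.4). The ranges of *Cd68* and *Msr1* did not overlap, whereas the ranges of *Msr1* and *Scarb2*, of *Scarb2* and *Stab1* and of *Stab1* and *Scarb1* did. *Msr1* was above *Scarb2* in 6 of 6 libraries, and *Stab1* was above *Scarb1* in 3 of 6. Below them came *Colec12* at 16.9 ± 1.95, *Olr1* at 0.895 ± 0.167, *Stab2* at 0.162 ± 0.0709 and *Marco* at 0.0619 ± 0.0451 CPM per kb. Of these neighbours only *Stab2* and *Marco* overlapped in range, with *Stab2* higher in 5 of 6 libraries. The lengths listed in the count table are those of whole gene spans, and which bases were counted is not given in the sources used here. With the exons of all transcripts, *Scarb1* (11.2 CPM per kb) fell in order below *Colec12* (15.6), and with whole spans *Stab1* (10.4) stood above *Msr1* (3.97). *Cd68* stayed first and *Olr1*, *Stab2* and *Marco* last in that order under all 3 lengths.

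**Figure D3:**
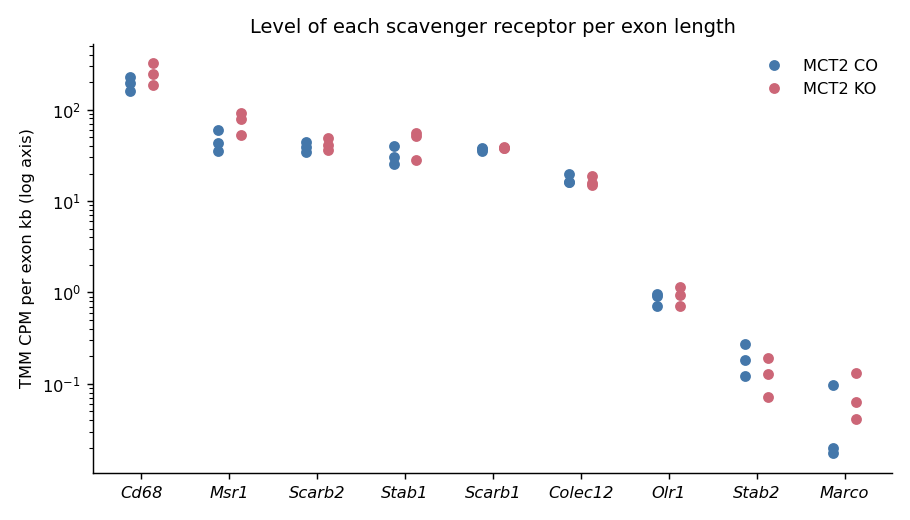
Level of each scavenger receptor as TMM-scaled CPM per kilobase of exon (log axis), with a point for each of the 3 MCT2 CO and 3 MCT2 KO libraries. The genes are ordered by their mean over the 6 libraries, from *Cd68* at 223 to *Marco* at 0.0619 CPM per kb.

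Per kilobase, *Stab1* exceeded *Stab2* by 140 to 249 times in MCT2 CO and by 224 to 720 times in MCT2 KO. The ratio was 249, 140 and 147 in the MCT2 CO mice and 720, 289 and 224 in the MCT2 KO mice. The highest ratio came from MCT2 KO replicate 1, where *Stab2* had 14 counts, and the groups overlapped.

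Patterns over the 6 mice were compared as log2 CPM centred on the mean of each gene, with the root mean square of the differences as the measure of likeness. The most alike members were *Scarb2* and *Olr1* (0.0928), followed by *Cd68* and *Olr1* (0.133). A small distance can also come from small variation in both genes, as for *Colec12* and *Scarb1* (0.159), whose patterns were not alike. *Cd68*, *Scarb2* and *Olr1* shared their order at the ends: MCT2 KO replicate 1 was the highest library for all of them and MCT2 CO replicate 3 the lowest, by centred values of 0.56 and -0.43 for *Cd68*, 0.29 and -0.23 for *Scarb2* and 0.38 and -0.31 for *Olr1*. *Msr1* and *Stab1* had their peak in MCT2 KO replicate 2, at 0.68 and 0.60, and both were also high in MCT2 KO replicate 1. The summed macrophage markers had the same end points as *Cd68*, *Scarb2* and *Olr1*, with 7516, 6569 and 5618 CPM in the MCT2 CO mice and 10621, 6622 and 7520 CPM in the MCT2 KO mice, and the part of macrophage content in the values of these members was not tested. The least alike were *Msr1* and *Stab2* (0.931). All points share libraries and scaling, and with 6 libraries these distances are a description.

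**Figure D4:**
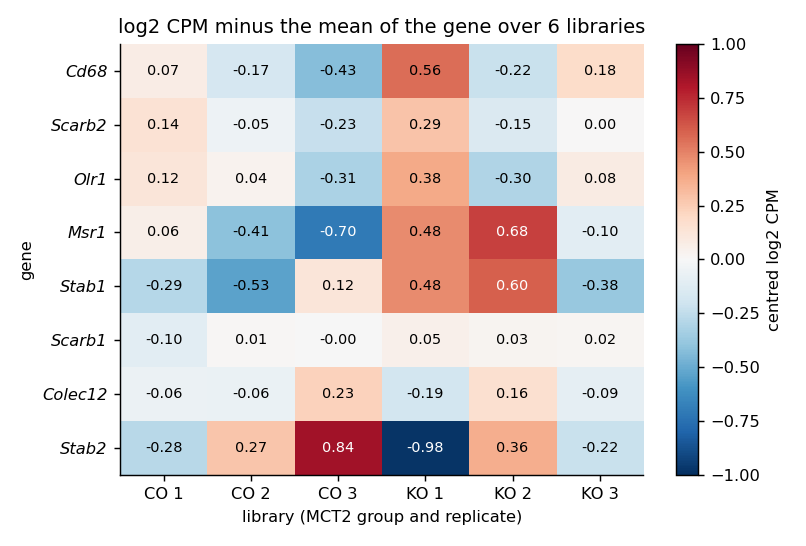
Log2 CPM of the 8 scavenger receptors tested, minus the mean of each gene over the 6 libraries (color and printed value), by library. *Cd68*, *Scarb2* and *Olr1* peak in MCT2 KO replicate 1, *Msr1* and *Stab1* in MCT2 KO replicate 2, and *Stab2* in MCT2 CO replicate 3, and *Scarb1* stays between -0.10 and 0.05.

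For each member the nearest pair of other genes was taken from all genes with a mean of at least 1 CPM. *Msr1* was most like *Clec4n*, which encodes the C-type lectin dectin-2 (0.103), and *Lyz2*, the lysozyme gene of myeloid cells (0.104). *Cd68* was nearest to *C1qa*, a complement subunit made by macrophages (0.0495), and *Pik3cg*, a leukocyte phosphoinositide 3-kinase (0.0499). *Scarb2* was nearest to *Stx7*, an endosomal syntaxin (0.0267), and *Epb41l2* (0.0288), and *Olr1* to the sodium/calcium exchanger gene *Slc8a1* (0.0395) and the interleukin-10 receptor gene *Il10rb* (0.0396). *Colec12* had *Extl2* (0.0172) and *Tspan3* (0.0256), and *Scarb1* had *Vta1* (0.0176) and *Tcf25* (0.0202). The distances of *Stab1* to *Pla1a* (0.165) and *Nxpe5* (0.172), and of *Stab2* to *Hspb1* (0.153) and *Tafa1* (0.196), were the largest of these.

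A list of 17 other scavenger receptors and related endocytic receptors was read from the same fit. In it, 13 genes passed the filter, of which 9 had a positive and 4 a negative log2 fold change, with a median of 0.18, and 0 passed the thresholds in edgeR's quasi-likelihood test. *Scarf2*, a class F receptor, was the only one with an unadjusted p under 0.05. It had 72.4, 73.5 and 86.2 CPM in the MCT2 CO mice and 52.3, 60.1 and 46.9 CPM in the MCT2 KO mice, without overlap. Its log2 fold change was -0.54 (SE 0.12, unadjusted p = 0.00162, adjusted p = 0.370 in edgeR's quasi-likelihood test). Groups also did not overlap for *Scara3* (71.1 ± 2.49 against 81.1 ± 13.1 CPM) and *Lrp1*, an endocytic receptor of apoptotic cells and proteases (1066 ± 74.1 against 1201 ± 17.3 CPM). Both were higher in MCT2 KO, with log2 fold changes of 0.19 and 0.17 and adjusted p values of 0.645 and 0.621 in edgeR's quasi-likelihood test. *Cd36*, the class B fatty acid and oxidized lipoprotein receptor closest in kind to *Scarb1*, had 6.48 ± 2.7 CPM in MCT2 CO and 10.1 ± 2.57 CPM in MCT2 KO (log2 fold change 0.64, adjusted p = 0.557 in edgeR's quasi-likelihood test). *Clec7a*, the β-glucan receptor dectin-1, had 110 ± 25.8 and 153 ± 38.4 CPM (log2 fold change 0.47, adjusted p = 0.546). *Mrc1*, the mannose receptor CD206, had 206 ± 31.8 and 233 ± 102 CPM. *Cxcl16*, a transmembrane chemokine that binds oxidized lipoprotein, and the hyaluronan receptor *Cd44* were abundant, with log2 fold changes of 0.28 and -0.08. *Cd163*, the hemoglobin scavenger receptor, was low at 1.48 ± 0.678 and 1.93 ± 1.98 CPM. For *Scarf1*, *Asgr1*, *Ager* and *Cd5l* the log2 fold changes were 0.04, -0.24, -0.14 and 0.83, with overlapping groups and adjusted p values from 0.648 to 0.977 in edgeR's quasi-likelihood test. The value of *Cd5l* rested on 4, 11 and 5 counts in MCT2 CO and 10, 10 and 15 in MCT2 KO. *Asgr1* had 48 counts in all in MCT2 CO and 40 in MCT2 KO. *Scara5*, *Megf10*, *Cd163l1* and *Lrp2* were too low to be tested. By CPM the groups of *Scara5* did not overlap, with 10, 15 and 28 counts in MCT2 CO and 5, 5 and 5 in MCT2 KO. Those of *Megf10* did not overlap in the other direction, with 1, 0 and 1 counts against 3, 2 and 1.

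Binding partners, cargo and ligands of the members were read from a list of 10 genes, all of which passed the filter. The log2 fold change was positive in 9 and negative in 1, with a median of 0.16, and 0 passed the thresholds in edgeR's quasi-likelihood test. Of 12 regulators, the transcription factors known to control members of the family or lysosomal genes, 8 had a positive and 4 a negative log2 fold change, with a median of 0.04, and again 0 passed. *Cebpb*, a transcription factor of myeloid and inflammatory genes, was lower in MCT2 KO at 10.3 ± 1.78 CPM, against 15.1 ± 3.39 CPM in MCT2 CO (log2 fold change -0.55, adjusted p = 0.475 in edgeR's quasi-likelihood test), with overlapping groups, and was the only regulator with an unadjusted p under 0.05.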

How the data were processed

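Bulk RNA-seq of CD11b+ cells from 3 MCT2 CO and 3 MCT2 KO mice was analysed. Strand-marking poly-A libraries were read on an Illumina HiSeq. By the submitters' processing notes, reads were checked with FastQC 0.12.0 and MultiQC 1.28, aligned to GRCm38 with STAR 2.7.11b and counted with featureCounts 2.1.1; DESeq2 1.18.1 is also listed. The authors deposited raw read counts per gene, neither normalized nor pooled. The annotation, feature type and strand setting of the counting are not given in the sources used here. If overlapping genes compete for reads, counts of genes inside others are lost. Positions in the table match GENCODE M21 for 2.2% of genes, while span lengths match for 98.1%. The table may therefore rest on another genome build than the GRCm38 that is named. Positions and exon lengths given here are those of the same Ensembl identifiers in GENCODE M21 (GRCm38).

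Counts were filtered by filterByExpr (minimum count 10, minimum total 15), scaled by TMM and compared without covariates by the quasi-likelihood test of edgeR 4.0.16 in R 4.3.3, with Benjamini–Hochberg adjustment over the 13485 genes kept. Thresholds were 0.05 for the adjusted p and 0.58, in either direction, for the log2 fold change. Intervals are at 95%. Log2 CPM used a prior count of 2. For single values, two-sided exact permutation tests were run, which cannot go below p = 0.1. Total counts of 24863611 to 31713704 keep counting error small for all but the lowest members. Groups came from the sample titles, and library names of MCT2 KO carry other numbers than their replicates. The procedure was run on simulated data, but the planted changes were larger than that of any member. Its power for changes of the members' size was not tested. Alternatives were DESeq2 1.42.0, limma-voom (limma 3.58.1), other scaling factors and filters, a replicate block and left-out mice. Annotation was handled with Python 3.11.15 and pandas 2.3.3.

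The members and gene lists were chosen with earlier results of these data known. Named were all members, the other scavenger receptors, genes of the lists of partners and cargo and of regulators with an unadjusted p under 0.05, the 2 nearest genes of each member, the 3 most abundant genes of marker lists, *Slc16a7* and genes overlapping a member. From the list of partners and cargo, 1 gene is not reported here. Summed levels of the further marker lists, from MCT2 CO to MCT2 KO, were 47.2 to 58.5 and 29.3 to 68.2 CPM for dendritic cells, 84.6 to 96.3 and 27.8 to 116 for B cells, 27.5 to 49.2 and 11.3 to 68.6 for T and NK cells, and 14.0 to 21.0 and 18.7 to 33.6 for epithelial tumor cells. Promoters were taken from RefSeq on GRCm38.p6.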

Additional observations from a re-analysis of the deposited data

How the results depend on the processing

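Each log2 fold change was recomputed under 15 alternatives for the 8 members tested, 120 values in all, of which 115 kept their direction and 5 turned in sign, and all had an adjusted p above 0.05. Some crossed the fold threshold of 0.58: *Msr1* went below it (0.54 without MCT2 CO replicate 3, 0.53 without MCT2 KO replicate 2 and 0.37 without both), *Stab1* above it (0.70 without MCT2 CO replicate 3 and 0.75 without MCT2 KO replicate 3), and *Stab2* past it (-0.78 without MCT2 CO replicate 1, -0.94 without MCT2 KO replicate 2 and -0.60 without MCT2 CO replicate 3 and MCT2 KO replicate 2 together). No member was called under any of them. With 1 mouse left out at a time, the log2 fold change of *Colec12* ranged from -0.18 to 0.028, turning in sign without MCT2 CO replicate 3 (0.028) and without MCT2 KO replicate 1 (0.0048). That of *Scarb2* ranged from -0.025 to 0.20, with the lowest value without MCT2 KO replicate 1, and that of *Olr1* from -0.055 to 0.28, with -0.0089 without MCT2 CO replicate 3 and -0.055 without MCT2 KO replicate 1. The ranges were 0.53 to 0.94 for *Msr1*, 0.32 to 0.75 for *Stab1*, 0.16 to 0.54 for *Cd68*, 0.028 to 0.087 for *Scarb1* and -0.94 to -0.18 for *Stab2*. Over all genes, where edgeR's quasi-likelihood test called 0, DESeq2 called 79 after the same filter and 83 when every gene with a count was kept, edgeR without the filter on low counts called 2, and 10 were called without MCT2 CO replicate 3 and MCT2 KO replicate 2 together; with single mice left out the count ranged from 0 to 2. The cause was not tested. With total counts and no scaling factors, 0 members had groups that did not overlap. The deviations of same-numbered libraries correlated at 0.216, -0.247 and -0.161, and those of other pairs at -0.212 to 0.292. With 3 libraries per group, this cannot decide whether the samples were paired. With the replicate number as a block, the log2 fold change of *Msr1* was 0.70 (unadjusted p = 0.00261, adjusted p = 0.392 in edgeR's quasi-likelihood test). In that fit 0 genes were called, and 1048 had an unadjusted p under 0.05, against 1264 without the block. At these depths *Marco*, with at most 6 reads per library, is limited by counting error.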
